A study of Rattus norvegicus with 4 samples.

Results

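The 10 small RNAs described here are the paired arms of 5 rat microRNA (miRNA) hairpins, out of 758 miRNAs on the array. The 5 arms named first, rno-miR-211-3p, rno-miR-139-3p, rno-miR-1306-3p, rno-miR-30c-2-3p and rno-miR-188-5p, were well above background in the inflammatory group, and their opposite arms, rno-miR-211-5p, rno-miR-139-5p, rno-miR-1306-5p, rno-miR-30c-5p and rno-miR-188-3p, were not. The arms were chosen by their measured spot signals and background flags, so detection, the contrast between arms and the height of the signals in that group are given as a description and support nothing further. Below, names drop the prefix rno- of the files.

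RNA came from extracellular vesicles released by bone marrow cells of male Sprague-Dawley rats. The M1_OA group (2 arrays) holds vesicles of macrophages from rats whose knee was destabilised at 8 weeks of age by cutting the anterior cruciate ligament and freeing the medial meniscus, a model of osteoarthritis. The M0_sham group (2 arrays) holds vesicles of macrophages from rats given a sham incision at the same age. In both groups marrow was taken 8 weeks after the operation, CD45+ CD11b+ cells were sorted, and they were grown in medium with fetal bovine serum and M-CSF at 20 ng/mL until day 7. Only M1_OA cells then had LPS at 100 ng/mL with interferon-γ at 20 ng/mL for 48 hours, followed by 5 mM ATP for 60 minutes. The operation and the polarisation therefore change together and cannot be told apart. The macrophages were made from marrow in culture, to stand for synovial macrophages, and the labels do not say whether the 2 arrays of a group came from separate animals or cultures, so that p-values measure the spread between arrays, which may be technical.

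A miRNA hairpin is cut by Drosha with its partner Dgcr8 and then by Dicer into a duplex of a 5p and a 3p arm. Usually an Argonaute protein keeps one strand, called the guide, and the other, the passenger or minor arm, is degraded. The strand that is kept recognises messenger RNAs mainly through its seed, near its 5′ end, so the arms of a hairpin have different targets. Older miRNA catalogues marked the minor arm with a star, and that mark was used here to check the notion that the 5 arms are minor ones. The older names in the files star miR-211-3p and miR-30c-2-3p. They go the other way for the miR-188 hairpin, where miR-188-3p is starred and miR-188-5p is not, and give no older name to the arms of miR-139 and miR-1306. The 5 arms are therefore called here the detected arms.

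The mature sequences are shown because the probes read the 3′ part of each arm and because paired arms differ widely in G. They are from RefSeq (build GRCr8), written 5′ to 3′, with the seed, bases 2 to 8, in capitals, and each detected arm stands before its opposite arm.
miR-211-3p: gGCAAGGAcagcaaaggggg
miR-211-5p: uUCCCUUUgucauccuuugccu
miR-139-3p: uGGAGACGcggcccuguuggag
miR-139-5p: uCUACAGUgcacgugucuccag
miR-1306-3p: gACGUUGGcucugguggugaug
miR-1306-5p: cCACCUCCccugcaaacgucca
miR-30c-2-3p: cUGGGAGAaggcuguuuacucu
miR-30c-5p: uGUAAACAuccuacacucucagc
miR-188-5p: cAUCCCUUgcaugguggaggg
miR-188-3p: cUCCCACAugcaggguuugc
No seed is shared among the 10 arms. G made up 50% of the bases of miR-211-3p, 45.5% of miR-139-3p and of miR-1306-3p, 38.1% of miR-188-5p and 31.8% of miR-30c-2-3p. In the opposite arms it made up 8.70% (miR-30c-5p) to 25% (miR-188-3p).

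In GRCr8, miR-211-3p lies at chr1:127189389-127189408 and miR-211-5p at chr1:127189353-127189374, both on the + strand within the span of Trpm1, a cation channel gene of pigment cells. miR-139-3p lies at chr1:165290901-165290922 and miR-139-5p at chr1:165290865-165290886, + strand, within Pde2a, which encodes a cyclic nucleotide phosphodiesterase. miR-1306-3p (chr11:96214007-96214028) and miR-1306-5p (chr11:96213968-96213989), + strand, lie within Dgcr8 itself. miR-30c-2-3p lies at chr9:33253735-33253756, + strand, within a long non-coding RNA gene. miR-30c-5p has 2 sources, Mir30c2 (chr9:33253695-33253717, + strand) and Mir30c1 (chr5:139634505-139634527, - strand), and Mir30c1 lies within Nfyc. miR-188-5p (chrX:17919595-17919615) and miR-188-3p (chrX:17919634-17919653), + strand, lie within Clcn5, a chloride transporter gene, with the miRNA genes Mir532, Mir362, Mir3560 and Mir501 within 10 kb. Whether these positions are exonic or intronic was not determined, as only gene spans were used.

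Each detected arm was read by 2 probes that differ by 1 base, and the pairs are shown because some of these pairs read very differently. In each line the shorter probe stands first, and the capital letter marks the base that the longer one adds.
miR-211-3p: ccccctttgctgt and ccccctttgctgtC
miR-139-3p: ctccaacagggcc and ctccaacagggccG
miR-1306-3p: catcaccaccagag and catcaccaccagagC
miR-30c-2-3p: agagtaaacagccttctc and agagtaaacagccttctcC
miR-188-5p: ccctccacca and ccctccaccaT
Every one is an exact complement of the 3′ part of its arm. The shorter probe of miR-188-5p pairs with 10 bases, from base 12 to base 21 of the miRNA, and the longer probe of miR-30c-2-3p with 19, from base 4 to base 22. Among the 685 of 758 array miRNAs matched by name to a RefSeq sequence, 0 others held the whole target of any of these probes. The unmatched miRNAs were not searched.

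The arrays were read as background-subtracted spot intensity in arbitrary units, which can fall below 0. Spots of a probe were averaged and the probes of a miRNA summed, and a miRNA counts as well above background on an array where the scanner software flagged a share over 0.5 of the unmarked spots of 1 or more probes. That held for 42 and 45 miRNAs on the M1_OA arrays and for 23 and 13 on the M0_sham arrays, and 703 of the 758 reached it on no array. The dimmest miRNA that passed had a signal of 16.9 and 14.6 on the M1_OA arrays and 7.78 and 26.7 on the M0_sham arrays, and no spot was saturated (0 on every array). The 7 kinds of negative control spot had mean signals of 2.91 to 13.1 on the M1_OA arrays and of 1.97 to 7.67 on the M0_sham arrays. These are values per spot, while a miRNA's signal is a sum over its probes. Single control spots reached 28.0 and 21.3 on the M1_OA arrays. The flag was carried by up to 35.1% and 10.3% of the spots of a control kind on the M1_OA arrays. On the M0_sham arrays it was up to 26.2% and 0%, so no kind reached the share over 0.5. Of 6 macrophage and myeloid markers, 4 (miR-223-3p, miR-21-5p, miR-155-5p and miR-146a-5p) passed on both M1_OA arrays and 0 on both M0_sham arrays (miR-223-3p on replicate 1), with summed signals of 519 to 701 in M1_OA and -6.80 to 14.2 in M0_sham. The 2 miR-142 arms, defining for blood cells, passed on none of the 4 arrays. The same held for the 2 erythroid, 2 platelet and endothelial, 1 liver, 2 neuronal, 5 epithelial, 4 stromal and 2 pigment cell markers, and of 3 muscle markers miR-206-3p passed, on M1_OA replicate 2. Each scan session held the arrays of 1 group, so session and group cannot be told apart, and neither can less of a miRNA per vesicle and fewer vesicles or less vesicle RNA.

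All 5 detected arms were well above background on both M1_OA arrays, as the choice required, against 5.28% of all 758 miRNAs, and 1 of them, miR-211-3p, was so on 1 of the 2 M0_sham arrays. The 5 opposite arms were well above background on 0 of the 4 arrays. Ranked by mean M1_OA signal among the 40 miRNAs well above background on both M1_OA arrays, miR-211-3p was at place 10, miR-188-5p at 13, miR-1306-3p at 29, miR-139-3p at 31 and miR-30c-2-3p at 39. The dimmest of the 40 was miR-92a-3p, with a mean of 16.5, and the brightest that missed the call on both arrays was miR-465-5p, with 26.4.

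**Figure D1:**
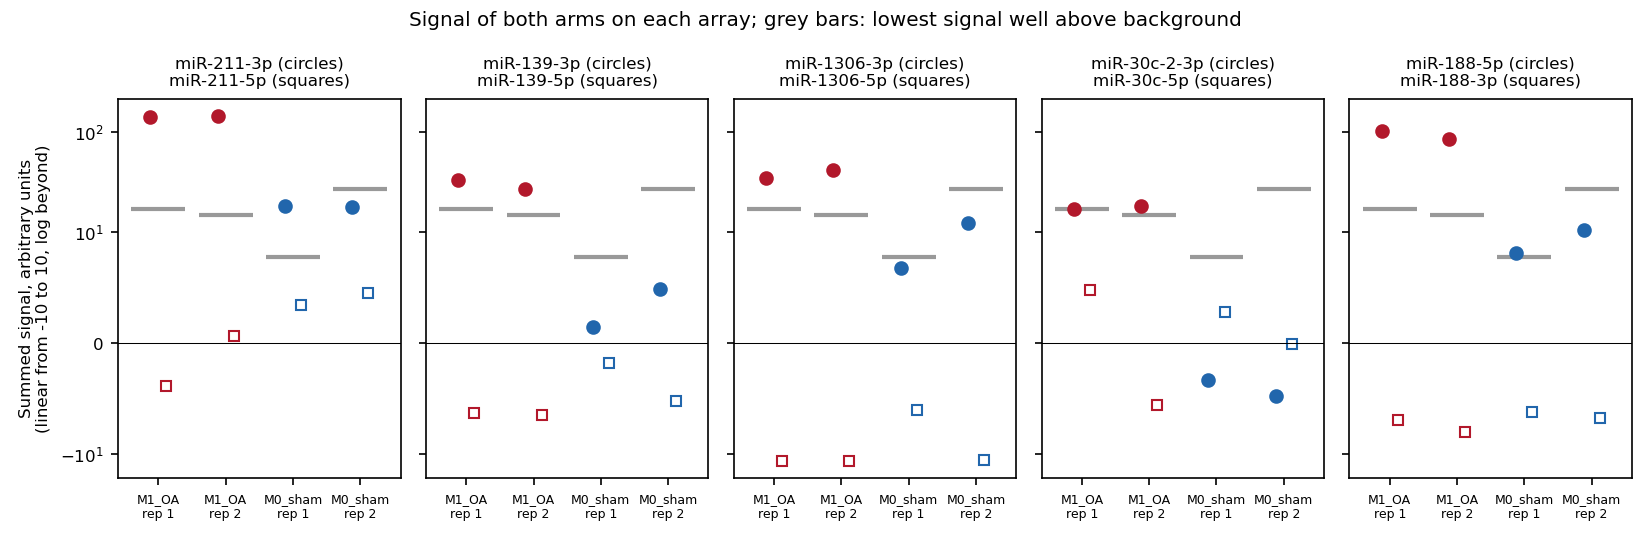
Summed signal (arbitrary units, before scaling, linear from -10 to 10 and logarithmic beyond) of the 5 detected arms (filled circles) and their opposite arms (open squares) on the 2 M1_OA arrays (red) and the 2 M0_sham arrays (blue), with the lowest signal well above background of each array as a grey bar. On the M1_OA arrays each circle lies at or above the bar and each square below it, and miR-30c-2-3p, at 16.9 on M1_OA replicate 1, is itself the bar of that array.

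miR-211-3p was the brightest of the 5. Its signals were 138.8 and 142.9 on the M1_OA arrays, against 18.2 and 17.8 on the M0_sham arrays. Before scaling, replicates lay close together and the groups far apart, with means of 140.9 ± 2.85 in M1_OA and 17.98 ± 0.319 in M0_sham (SD, n = 2 each). After the scaling used for the test further on, replicates lay less close, at 81.6 ± 23.5 in M1_OA and 32.1 ± 7.14 in M0_sham. The M0_sham signals were nearly equal, but only that of replicate 1 passed the detection call. The dimmest miRNA that passed lay at 7.78 on M0_sham replicate 1 and at 26.7 on replicate 2. The scanner software's own call for the whole miRNA listed miR-211-3p as detected on all 4 arrays. miR-211-5p, known in humans as the arm that melanocytes make together with melastatin, had -3.90 and 0.681 in M1_OA, against 3.43 and 4.53 in M0_sham, and was not detected by either call. miR-204-5p, a relative with the seed of miR-211-5p, passed the detection call on none of the 4 arrays.

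The 2 probes of miR-211-3p read alike. The shorter gave 70.3 and 71.4 on the M1_OA arrays, against 8.59 and 8.19 on the M0_sham arrays, and the longer gave 68.6 and 71.5 on the M1_OA arrays, against 9.62 and 9.56 on the M0_sham arrays. All unmarked spots of both were flagged well above background on the M1_OA arrays. On M0_sham replicate 1 the flag was carried by 5 of 8 spots of the shorter and 6 of 8 of the longer, and on replicate 2 by 0 of 8 and 0 of 5. The 3 probes of miR-211-5p had means of -3.29 to 2.29 on the M1_OA arrays and 0.473 to 2.21 on the M0_sham arrays.

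miR-188-5p came next. Its signals were 101.05 and 84.0 on the M1_OA arrays, against 8.12 and 10.5 on the M0_sham arrays, with means of 92.5 ± 12.0 in M1_OA and 9.30 ± 1.66 in M0_sham (SD, n = 2 each). The groups did not overlap, and neither M0_sham array passed the detection call, although 8.12 on replicate 1 lay above that array's lowest signal well above background. With probes of 10 and 11 bases, it was read at 48.9 and 38.6 on the M1_OA arrays, against 3.74 and 4.57 on the M0_sham arrays, by the shorter. The longer gave 52.2 and 45.4 on the M1_OA arrays, against 4.38 and 5.90 on the M0_sham arrays. Of the spots of either probe, 1 of 7 on M0_sham replicate 1 (longer probe) was flagged and 0 on replicate 2. The opposite arm miR-188-3p lay below 0 throughout, with -6.88 and -8.01 in M1_OA, against -6.21 and -6.71 in M0_sham.

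miR-1306-3p, whose hairpin lies within the gene for Drosha's partner, had 34.4 and 41.5 on the M1_OA arrays, against 6.73 and 12.2 on the M0_sham arrays. The groups did not overlap before scaling, at 37.9 ± 5.01 in M1_OA and 9.44 ± 3.84 in M0_sham (SD, n = 2 each). Its shorter probe gave 16.1 and 18.9 on the M1_OA arrays, against 2.61 and 5.13 on the M0_sham arrays, and its longer one gave 18.3 and 22.6 on the M1_OA arrays, against 4.12 and 7.02 on the M0_sham arrays. On M1_OA replicate 1 the flag was carried by 6 of 8 unmarked spots of the shorter and 5 of 6 of the longer, so a call that asks for all spots of a probe leaves this arm on 1 M1_OA array. miR-1306-5p had the lowest signals of the 10 arms on both M1_OA arrays, -11.7 and -11.6, against -5.97 and -11.4 on the M0_sham arrays.

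miR-139-3p had 33.0 and 27.0 on the M1_OA arrays, against 1.47 and 4.89 on the M0_sham arrays. Unlike the 3 arms above, it was read well above background by 1 of its 2 probes. The longer probe gave 27.1 and 25.0 on the M1_OA arrays, with 6 of 6 and 8 of 8 spots flagged, against 3.69 and 5.73 on the M0_sham arrays, with 0 flagged. The shorter, which lacks only the last G, gave 5.88 and 1.97 on the M1_OA arrays, against -2.22 and -0.837 on the M0_sham arrays, with 0 spots flagged. Its spots on the M1_OA arrays reached 10.1 at most, below the 20.6 of the dimmest spot of the longer probe. The opposite arm miR-139-5p, studied in humans as an arm lowered in many tumours, had -6.30 and -6.45 in M1_OA, against -1.79 and -5.24 in M0_sham.

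miR-30c-2-3p was the dimmest, with 16.9 and 18.05 on the M1_OA arrays, against -3.36 and -4.75 on the M0_sham arrays. It too rested on its longer probe, with 20.1 and 19.1 on the M1_OA arrays (6 of 6 and 7 of 7 spots flagged), against -1.62 and -0.537 on the M0_sham arrays. The shorter probe, without the last C, gave -3.27 and -1.004 on the M1_OA arrays, against -1.74 and -4.21 on the M0_sham arrays, and 0 of its spots were flagged. With the probes summed, the negative reading of the shorter one lowers the arm's signal. The opposite arm miR-30c-5p, which carries the seed shared by the miR-30 family, had 4.74 and -5.59 in M1_OA, against 2.81 and -0.0425 in M0_sham. Over the 11 probes of all opposite arms, means ran from -7.68 to 5.88 on the M1_OA arrays and from -6.11 to 3.13 on the M0_sham arrays, and 0 unmarked spots were flagged.

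**Figure D2:**
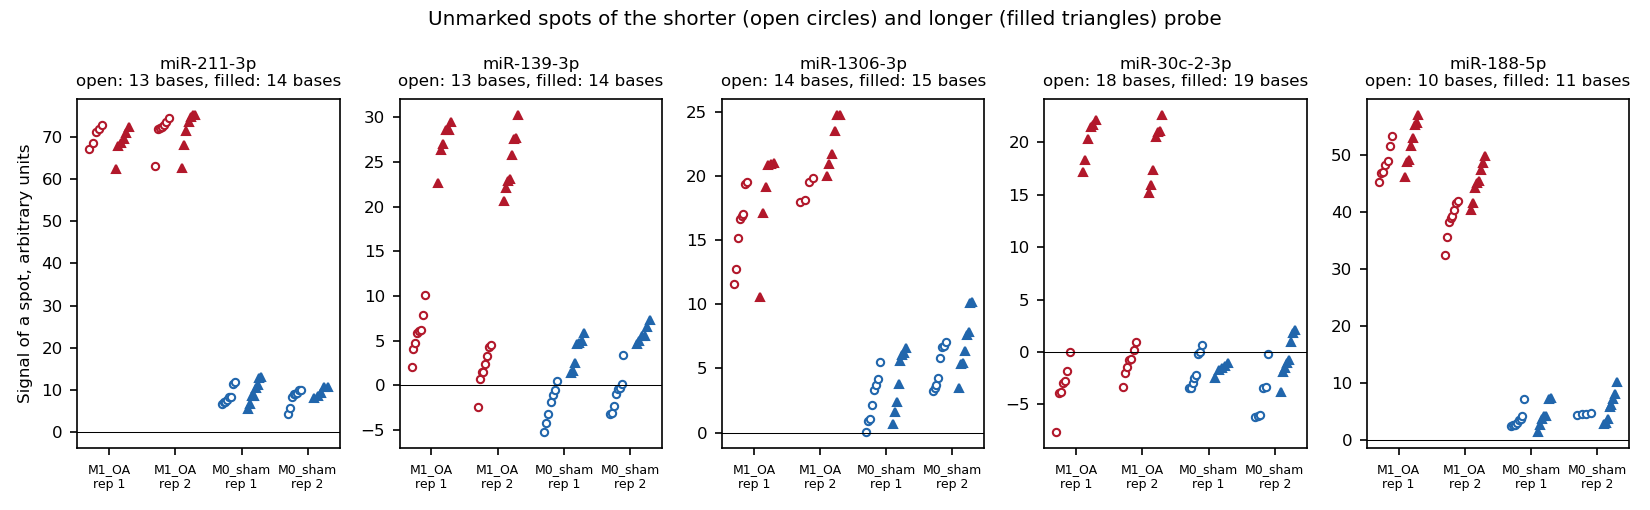
Signal of each unmarked spot (arbitrary units) for the shorter (open circles) and the longer (filled triangles) probe of the 5 detected arms, on the 2 M1_OA arrays (red) and the 2 M0_sham arrays (blue), with a scale of its own in each panel. The probes of miR-211-3p, miR-1306-3p and miR-188-5p overlap or lie close on the M1_OA arrays, while for miR-139-3p (longer 27.1 and 25.0, shorter 5.88 and 1.97) and miR-30c-2-3p (longer 20.1 and 19.1, shorter -3.27 and -1.004) the longer probe stands apart.

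The arm with the same seed as miR-30c-2-3p, miR-30c-1-3p from the other miR-30c hairpin, showed a smaller step in the same direction and is named here for that reason, after its values were seen. It has 4 probes, each a base longer than the last, and the 2 longest are these.
miR-30c-1-3p, 18 bases: ggagtaaacaaccctctC
miR-30c-1-3p, 19 bases: ggagtaaacaaccctctcC
The longest gave 11.5 and 12.2 on the M1_OA arrays, against -0.119 and 0.832 on the M0_sham arrays. The other 3 probes lay between -0.567 and 3.59 on the M1_OA arrays and between -2.46 and 1.17 on the M0_sham arrays. In sum miR-30c-1-3p had 14.9 and 16.4 on the M1_OA arrays, against -3.72 and -1.85 on the M0_sham arrays, and was not well above background on any by the spot flags. The scanner software's own call listed it as detected on both M1_OA arrays. In both arms the last C completes the letters CTCC at the end of the probe. Disagreement between probes was not rare on these arrays: of the 40 miRNAs well above background on both M1_OA arrays, all with at least 2 probes, 19 had every probe well above background on both and 21, miR-139-3p and miR-30c-2-3p among them, had only some.

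An arm ratio cannot be measured where 1 arm is below background, so the detected arm's signal was set against the lowest signal well above background of the same array. This is a ratio of readings of different probes, which bind with different strength, and not of molecules. For miR-211-3p it was at least 8.23 and 9.80 on the M1_OA arrays, and at least 2.34 on M0_sham replicate 1. For miR-188-5p it was at least 5.99 and 5.76, for miR-1306-3p at least 2.04 and 2.84, and for miR-139-3p at least 1.95 and 1.85 on the M1_OA arrays. For miR-30c-2-3p it was 1.00 and 1.24, so on M1_OA replicate 1 the limit leaves the order of its arms unresolved. These values depend on the summary: with the brightest probe in place of the sum, the mean log2 bound on the M1_OA arrays was 2.33 for miR-211-3p (3.17 with the sum), 1.81 for miR-188-5p (2.55) and 0.55 for miR-1306-3p (1.27), and with the normexp background correction it was 0.50, 0.62 and 0.21 for these arms.

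Detection of 1 arm without its partner was not limited to these hairpins. Among 319 pairs of arms with both on the array, 17 had the 5p arm alone and 19 the 3p arm alone well above background on both M1_OA arrays, 0 had both, and 283 had neither. On both M0_sham arrays 6 had the 5p arm alone, 1 the 3p arm alone, 0 both and 312 neither. miR-466b was the only hairpin with both arms well above background on any one array, M0_sham replicate 1, where the 5p arm had 172 and the 3p arm 34.1. Of the 240 miRNAs with a starred older name, 6 (2.5%) were well above background on both M1_OA arrays, miR-211-3p and miR-30c-2-3p with miR-32-3p, miR-423-5p, miR-483-5p and miR-652-5p. Of the 235 with an unstarred older name 21 (8.94%) were, and of the 283 with none 13 (4.59%).

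The contrast of M1_OA with M0_sham asks whether the vesicles of inflammatory macrophages differ in these arms. Tested together were the 41 miRNAs that passed the detection call on both M1_OA arrays or on both M0_sham arrays. Each array was first scaled to the 75th percentile of the 11 miRNAs detected on all 4 arrays, and values under a scaled signal of 7.90 were set to that floor before log2. The test was limma, a linear model that pools the spread over miRNAs, with Benjamini-Hochberg (BH) adjustment over the 41, and a miRNA passed at an adjusted p under 0.05. The opposite arms did not enter (0 of 5). The 5 detected arms entered because they passed the detection call on both M1_OA arrays, and not on both M0_sham arrays, which largely fixes the direction of a change. Of the 29 such miRNAs 69% passed as higher in M1_OA, and of all 41, 53.7% (22 miRNAs) passed as higher and 9.76% (4 miRNAs) as lower, with a median log2 difference of 0.62. Of the 5 arms, 3 passed as higher and 0 as lower, and nothing about the arms is read from that count.

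miR-188-5p had scaled signals of 47.3 and 57.7 in M1_OA, against 16.6 and 16.0 in M0_sham, and its log2 difference, M1_OA minus M0_sham, was 1.68 with an SE of 0.16 (limma, BH-adjusted p = 0.0040, with 3.40e-05 to 0.123 over all its alternatives). As it was below background on both M0_sham arrays, the bound of its fold, given further on, is the firmer value. miR-211-3p had 65.0 and 98.1 in M1_OA, against 37.2 and 27.1 in M0_sham, and the difference was 1.33 ± 0.31 (SE, log2; limma, BH-adjusted p = 0.0343). It missed the threshold with either M1_OA array left out, at 1.63 without replicate 1 and 1.03 without replicate 2 (limma, BH-adjusted p = 0.142 and 0.237, with 2.89e-04 to 0.612 over all its alternatives). miR-139-3p had 15.4 and 18.5 in M1_OA, against 2.9999 and 7.45 in M0_sham, both of which were set to the floor, so that its p holds no spread of the M0_sham arrays. The size of its difference depends on that floor. Its log2 difference was 1.098 ± 0.15 (SE; limma, BH-adjusted p = 0.00903). With M0_sham replicate 2 left out the difference was 0.97 and missed the threshold (limma, BH-adjusted p = 0.0653, with 3.11e-04 to 0.106 over all its alternatives).

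The other two arms did not pass. miR-1306-3p had scaled signals of 16.1 and 28.5 in M1_OA, against 13.7 and 18.5 in M0_sham, so the groups overlapped, and differed by 0.42 ± 0.38 on the log2 scale (limma, BH-adjusted p = 0.406). That difference was 0.0124 without M1_OA replicate 2 and 0.89 without M0_sham replicate 2, and did not pass in either case (limma, BH-adjusted p = 0.998 and 0.162). miR-30c-2-3p had 7.90 and 12.4 in M1_OA, against -6.86 and -7.24 in M0_sham. Its value on M1_OA replicate 1 is itself the floor, so that replicate against the floored M0_sham values gives 0 by construction. Of its scaled signals only that of M1_OA replicate 2 lay above the floor, and the log2 difference was 0.33 ± 0.28 (limma, BH-adjusted p = 0.395). It was 0.31 with M1_OA replicate 1 left out and 0 with M1_OA replicate 2 left out, where the M0_sham values, both at the floor, leave this arm no spread of its own and no p is given. Before scaling both M1_OA signals lay above both M0_sham signals for 5 of the 5 arms and 80.5% of the 41 tested miRNAs, and after scaling for 4 of the 5 and 58.5% of the 41.

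The scaling decides the size of these differences. The divisors were 2.14 and 1.46 on the M1_OA arrays, against 0.490 and 0.656 on the M0_sham arrays, and without them the median log2 difference of the 41 was 1.96. All 5 arms then passed as higher, where 78% of the 41 did. Without scaling the log2 difference was 3.32 for miR-188-5p and 2.97 for miR-211-3p (limma, BH-adjusted p = 2.89e-04 for each). It was 1.96 for miR-1306-3p (limma, BH-adjusted p = 0.00357), where the M0_sham replicate 1 signal, 6.73, was set to the floor of this setting, 7.78. The log2 difference was 1.94 for miR-139-3p (limma, BH-adjusted p = 0.00112) and 1.17 for miR-30c-2-3p (limma, BH-adjusted p = 0.00521). Both M0_sham values of miR-139-3p and of miR-30c-2-3p were set to the floor, so these sizes and that of miR-1306-3p depend on it.

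For arms below background on both M0_sham arrays, a fold is a lower bound against the M0_sham detection limits, which after scaling were 15.9 and 40.7, or against the arm's own M0_sham signal where that was higher, as for miR-188-5p on replicate 1 (16.6). miR-188-5p was at least 2.01-fold higher in M1_OA after scaling and at least 6.26-fold higher without it. For miR-139-3p, miR-1306-3p and miR-30c-2-3p the M1_OA signals did not exceed those limits on average after scaling, so no fold can be given. Without scaling the bounds were at least 2.62-fold for miR-1306-3p, 2.07-fold for miR-139-3p and 1.21-fold for miR-30c-2-3p. miR-211-3p was measured on 1 of 2 M0_sham arrays and its log2 difference is an estimate.

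**Figure D3:**
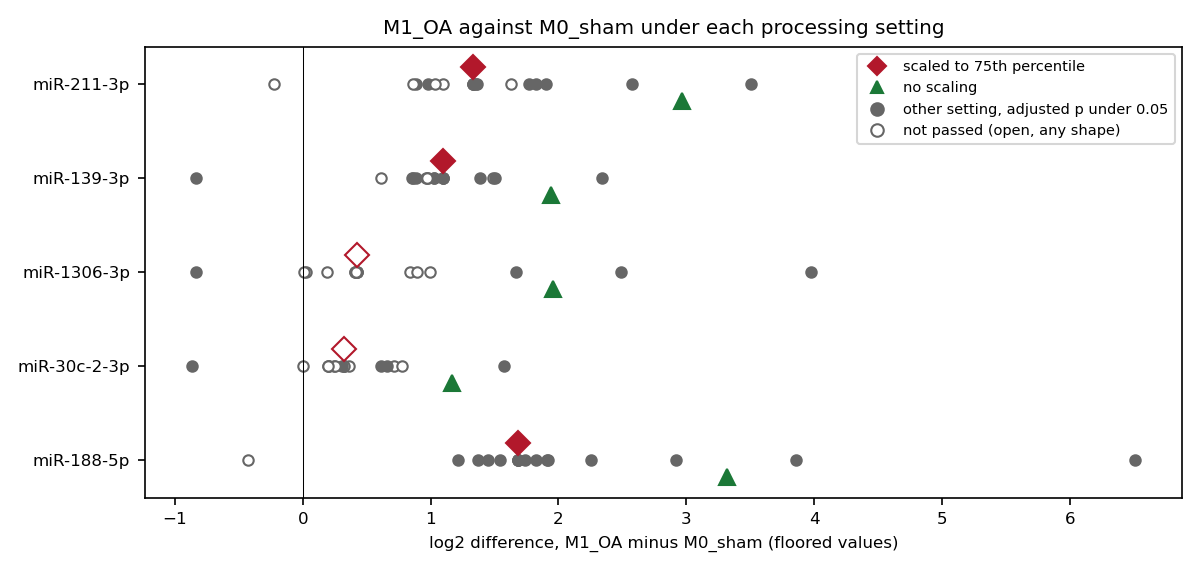
Log2 difference, M1_OA minus M0_sham, of the 5 detected arms under each processing setting (points), with the 75th-percentile scaling (red diamond) and no scaling (green triangle) set apart, filled where limma's BH-adjusted p was under 0.05. The negative points (-0.87 to -0.23) are from the normexp background correction and the points at 6.51 for miR-188-5p and 3.98 for miR-1306-3p from the authors' deposited table, where both are listed at the table's lowest value in M0_sham.

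In the authors' deposited table of log2 values, whose normalization between arrays is not given in the sources used here, all 5 opposite arms stand at the table's lowest value, -3.322, on the 4 arrays. The authors' deposited table gives miR-211-3p as 3.52 and 4.37 in M1_OA, against 2.05 and 2.18 in M0_sham. It lists miR-188-5p at 3.23 and 3.14 in M1_OA, against -3.322 and -3.322 in M0_sham (the authors' deposited table). miR-1306-3p stands at 0.44 and 0.87 in M1_OA, against -3.322 and -3.322 in M0_sham, and miR-139-3p at -0.36 and -0.24 in M1_OA, against -1.96 and -1.64 in M0_sham, in the authors' deposited table. For miR-30c-2-3p the authors' deposited table gives -1.68 and -1.04 in M1_OA, against -1.68 and -2.59 in M0_sham, so replicate 1 of both groups has the same value there. On both M1_OA arrays the authors' deposited table and the processed signals put the 5 arms in the same order.

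The composition of the probes was no threshold in the choice of arms and is given as a description. C made up 27.8% to 70% of the bases of the 10 probes of the detected arms, with a median of 46.2%, and 5.56% to 35.7% of the 11 probes of the opposite arms, with a median of 13.3%. Over all 1806 probes the median was 26.3%. Over the 61 probes well above background on both M1_OA arrays, probes of these arms among them, it was 38.1%. The letters CTCC were searched on the probe strand only (GGAG in the miRNA). They were in 5 of the 10 probes of the detected arms, those of miR-139-3p and miR-188-5p and the longer one of miR-30c-2-3p. They were in 0 of the 11 probes of the opposite arms, in 95 (5.26%) of all probes and in 19 (31.1%) of those 61. Both probes of miR-139-3p hold CTCC and the same 6 C, in 13 bases (46.2%) and in 14 (42.9%), and the shorter was the dim one. miR-211-3p, the brightest arm, has no CTCC in either probe, and C made up 46.2% and 50% of their bases.

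Across the array, well above background on both M1_OA arrays were 0.758% of the 132 probes with under 10% C, 0.752% of those with 10% to under 20%, 2.92% with 20% to under 30%, 2.59% with 30% to under 40%, 6.13% with 40% to under 50%, and 23.7% of the 76 with 50% or more. With CTCC it was 20% of 95 probes, and without it 2.45% of 1711. On the M0_sham arrays, 8.42% and 9.47% of the probes with CTCC were well above background, against 1.75% and 0.701% of those without. For the arms detected without their partner on both M1_OA arrays, the highest share of C among an arm's probes, flagged or not, was taken. It ran from 31.6% to 70% for the 5 (median 46.7%, 3 with CTCC in any probe). For the other 28 it ran from 15% to 60% (median 30.3%, 3 with CTCC in any probe). Probes of all classes share the labelling and the slide, and the part of base composition in the signals was not tested.

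**Figure D4:**
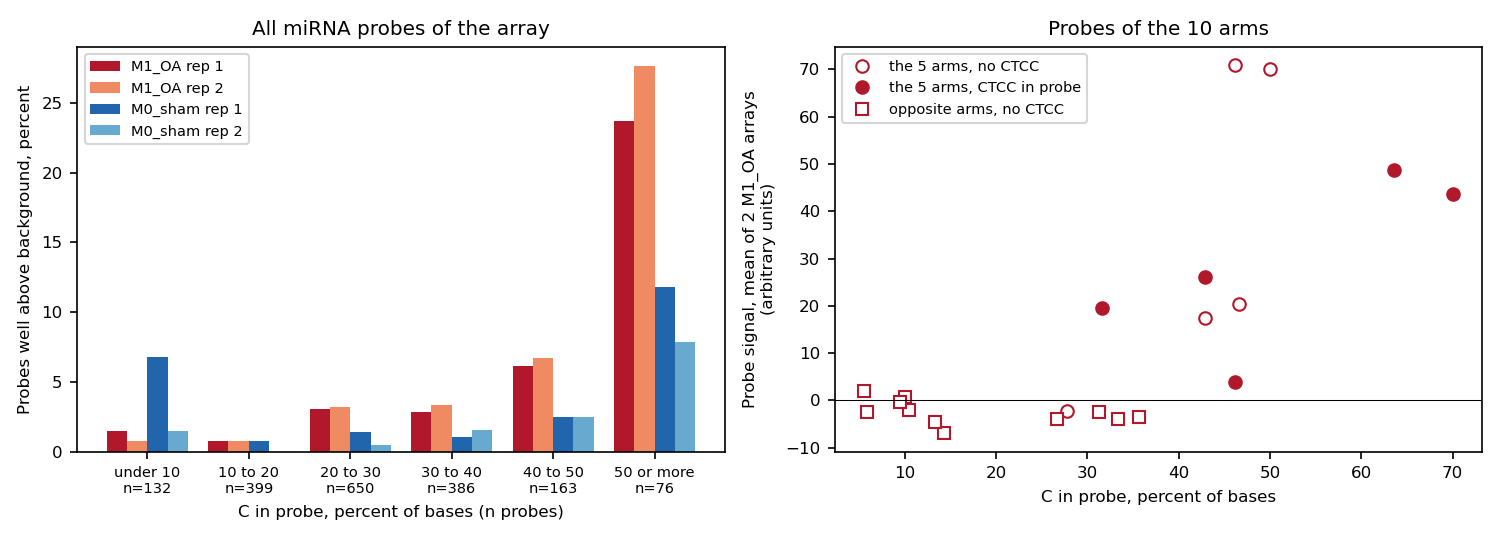
Left, the percentage of all probes that were well above background on each array by the share of C in the probe, M1_OA arrays in red and orange and M0_sham arrays in blue, with the number of probes under each class. Right, the mean M1_OA signal (arbitrary units) of each probe of the 10 arms against its share of C, where the detected arms' probes (circles, filled with CTCC) reach 70.8 and the opposite arms' probes (squares) stay at or below 2.08.

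The longest run that a detected arm's probe target shares with one of the 11 miRNAs detected on all arrays was 7 bases, between miR-188-5p and miR-1224. For miR-1306-3p it was 6 bases with miR-1896, and for the longer probe of miR-30c-2-3p it was 6 with miR-6216, against 5 for the shorter. For miR-211-3p (with miR-423-5p) and miR-139-3p (with miR-672-5p) it was 5 bases. Over all array miRNAs matched to a sequence, detected or not, the longest run was 10 bases for miR-30c-2-3p (with miR-488-3p). It was 8 for miR-211-3p, miR-139-3p and miR-188-5p, and 7 for miR-1306-3p. Partners with a run of equal length are not all named. Binding of these miRNAs to the probes was not tested.

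Relatives and neighbours of the arms were mostly below background, as were 703 of all 758 miRNAs, with 55 well above it on any array. Of 11 arms of the miR-30 family on the array, 2 were well above background on any array, miR-30c-2-3p and, on M1_OA replicate 1 only, miR-30d-5p (25.4 and 12.7 in M1_OA, against 2.42 and -1.15 in M0_sham), and of the 1 tested 0 passed. By the scanner software's own call miR-30c-1-3p was detected as well. Of 4 arms of miR-204 and miR-211, miR-211-3p was the 1 tested and passed as higher. Of 10 arms of miR-188, miR-362, miR-500, miR-501 and miR-532, a list made by name that leaves out the nearby Mir3560, miR-188-5p was the 1 tested and passed as higher. Of the 2 arms from the Dgcr8 locus, miR-1306-3p was the 1 tested and did not pass. These calls stand beside 53.7% of all 41 tested and 69% of the 29 that entered as these arms did, so they say nothing about the families.

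Likeness of profile was taken as the distance between centred log2 values over the 4 arrays, where a small distance partly reflects shared floor values. miR-211-3p was nearest to miR-6216 (distance 0.18, against a median of 1.30 to all tested miRNAs), then to miR-139-3p (0.46) and miR-188-5p (0.50). miR-188-5p was nearest to let-7i-5p (0.16), miR-16-5p (0.26) and miR-134-5p (0.34), and miR-139-3p to miR-27a-3p (0.34), miR-16-5p (0.40) and miR-6216 (0.42). miR-1306-3p was nearest to let-7b-5p (0.23), miR-1224 (0.30) and miR-30c-2-3p (0.34). miR-30c-2-3p had miR-1306-3p (0.34), miR-1224 (0.49) and miR-328a-3p (0.50) as its nearest.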

How the data were processed

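Vesicle RNA was labelled with Cy3 from 0.2 µg and hybridised to 4 Agilent miRNA arrays of the rat, 2 per group. The labels' protocol describes linear amplification of cRNA, and whether miRNAs were labelled that way here is unclear. Per the file headers, the deposited processed intensity is from Agilent Feature Extraction 10.7.1.1, background-subtracted and without scaling between arrays. The deposited mean and background intensities are raw, and the deposited flags are 0 or 1. The deposited table of log2 values was made by the authors, and how it was normalized is not given in the sources used here. Depth is set by the arrays' signal over background, and 2 arrays a group limit the precision.

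From these files, unmarked spots were averaged per probe, probes summed per miRNA (1806 probes, 12128 spots an array, 758 miRNAs), arrays scaled to the 75th percentile of the 11 all-array miRNAs, and values floored at 7.90 before log2. Tests used limma 3.58.1 in R 4.3.3 (lmFit, eBayes, two-sided, Benjamini-Hochberg (BH) adjustment over 41 miRNAs, threshold 0.05). The recovery of known differences was checked on simulated normal values, with more rows and no floor. That check does not cover the p-values of arms with floored values. An array that a fit leaves out is named beside its value. Sequences are from RefSeq (GRCr8) and the files; 685 of 758 array names and 10 of 10 arms matched. The arms named are all 10 members, the 3 nearest tested miRNAs in profile, and list members well above background. The members and lists were chosen with earlier results of these data known. Alternatives changed the scaling, background, filter, detection call, summaries, threshold, replicate block and replicates. Plots used matplotlib 3.10.9 in Python 3.11.15.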

Additional observations from a re-analysis of the deposited data

How the results depend on the processing

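All 5 detected arms were well above background on both M1_OA arrays under the settings where that was recomputed, except that miR-1306-3p was on 1 M1_OA array by the call that asks for all spots of a probe (4 of 5). Normexp does not alter the spot flags and gave no separate detection count. The number of tested miRNAs higher in M1_OA (22) was 34 with labelling spike-ins, 4 with normexp (offset 50) and 11 without a filter, and 13 to 21 with 1 array left out, 13 without M0_sham replicate 2. The number lower (4) was 0 without scaling, with the percentile over miRNAs without CTCC and with spike-ins, 25 with normexp, 8 with the filter of at least 1 array, 7 with the scanner software's gene call (an alternative chosen after seeing the data) and 7 with the replicate block, and 0 to 9 with 1 array left out. Of the 5 arms, 5 passed as higher without scaling and with spike-ins, 0 with normexp and 0 without a filter (where 758 miRNAs were tested). No count of the arms is given with 1 array left out, as a group then has 1 array. With normexp the log2 differences turned, to -0.23 for miR-211-3p, -0.84 for miR-139-3p, -0.84 for miR-1306-3p, -0.87 for miR-30c-2-3p and -0.43 for miR-188-5p, as the median of the 41 did (-0.79). There 3 of the 5 passed as lower, miR-139-3p, miR-1306-3p and miR-30c-2-3p (limma, BH-adjusted p = 0.00294, 0.00294 and 0.00278). The offset of 50 exceeds most signals here, and this setting had divisors of its own, which are not given. The part of the offset in these differences was not tested. Of the 3 arms that passed, besides normexp and the arrays named in the report, miR-188-5p missed the threshold without a filter (limma, BH-adjusted p = 0.0548), as did miR-211-3p (0.612) and miR-139-3p (0.106). miR-211-3p also missed it with the call on all spots (0.104) and the gene call (0.120), and miR-139-3p with quantile normalization (0.0910), the percentile without CTCC (0.0784) and the brightest probe (0.0790). miR-30c-2-3p passed with the call on at least 1 spot (0.0404), the brightest probe (0.0184) and spike-ins (0.00181), and miR-1306-3p with the percentile without CTCC (0.0374), spike-ins (0.00181) and the authors' deposited table (0.00319). The cause was not tested. Same-numbered arrays share only a number (r = 0.31 between their deviations, across 41 miRNAs), and the replicate block changed no call of the 5 arms. The 75th percentile over all miRNAs was negative on every array and gave no scaling. A slide or scan block could not be fitted, since all arrays are on 1 slide and each session holds 1 group. Detection-call alternatives kept the floor of 7.90.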
